A study of Mus musculus with 78 samples.

Results

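Livers of 9-week-old mice that lack Npc1 were compared with livers of mice that carry the gene, across all genes measured. The samples were chosen by their labels alone. They are 8 of the 78 arrays of the series: 4 arrays of Npc1-/- mice and 4 of Npc1+/+ mice, each made from the liver of 1 mouse. All 8 mice were females on the BALB/c background, born to heterozygous parents of the BALB/cNctr-Npc1m1N/J line, kept on chow and water without restriction, and given no treatment. The labels place 9 weeks after the onset of symptoms. The null allele is constitutive, so changes that start in liver cells and changes that follow illness elsewhere in the mouse cannot be told apart. The same line at 7 weeks and at 11 weeks, with 4 untreated female mice of each genotype at each age, served to show where 9 weeks differs from its neighbours.

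NPC1 is a protein of the membrane of late endosomes and lysosomes that moves cholesterol, handed over by its soluble partner NPC2, out of these organelles. When it is missing, cholesterol and sphingolipids collect in lysosomes of every tissue. In the liver the resident macrophages (Kupffer cells) and macrophages that arrive from the blood become swollen, lipid-filled foam cells, and hepatocytes store cholesterol as well. In people, loss of NPC1 causes Niemann-Pick disease type C, which affects liver, spleen and brain.

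Expression values are log2, so that a difference of 1 is a 2-fold change. The SE beside a change comes from a fit (limma) that shares 1 estimate of the spread per gene among the 48 arrays of the age series. A gene is said to have risen or fallen when limma's adjusted p (Benjamini-Hochberg, over 12638 genes tested, 4 mice per genotype) was under 0.05. Probe sets differ in brightness, so levels are set against each other between mice and not between genes. The files hold no detection calls. Where the lower group of a gene lies under 5.54, the median of all values, its signal is not shown to exceed background and the change is then a lower bound.

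Npc1 itself read 8.41, 8.45, 8.33 and 8.28 in the Npc1-/- livers, against 10.32, 9.92, 10.10 and 10.02 in the Npc1+/+ livers. The groups lay far apart, and every label matched its array. Npc1 fell by 1.72 ± 0.16 (SE; adjusted p = 3.35e-12), a 3.30-fold lower signal. The position of its probes on the mutated transcript is not given in the sources used here, so the remaining signal is no measure of working transcript. Albumin (Alb), the main secreted protein of hepatocytes, was among the brightest signals in all 8 arrays, at 13.51 to 13.64 in Npc1-/- livers and 13.39 to 13.51 in Npc1+/+ livers. Array medians lay between 5.48 and 5.61, the correlation of an array with the other 3 of its group averaged 0.984 to 0.993 over the genes tested, and no pair of arrays was identical. A list of 15 pancreatic genes, which pick up pieces of pancreas dissected with a liver, averaged 4.96 to 5.09 in Npc1-/- livers and 4.92 to 5.98 in Npc1+/+ livers, where mouse 4 was the high one.

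Many of the genes tested differed between the genotypes. At 9 weeks 2225 genes rose and 1965 fell, 4190 of 12638 in all (33.2%), and the median change over all genes was -0.01. The rises were larger than the falls: of 480 genes that changed at least 2-fold, 372 rose and 108 fell. In 2152 genes every Npc1-/- mouse lay above every Npc1+/+ mouse (17.0% of genes) and in 1923 every Npc1-/- mouse lay below (15.2%). Rises made up 53.1% of the calls on the deposited scale, 46.4% after quantile normalization and 36.1% after centring each array on its median, which shift the change of the median gene by -0.04 and by -0.07. Small changes are therefore given as relative to this scale.

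**Figure D1:**
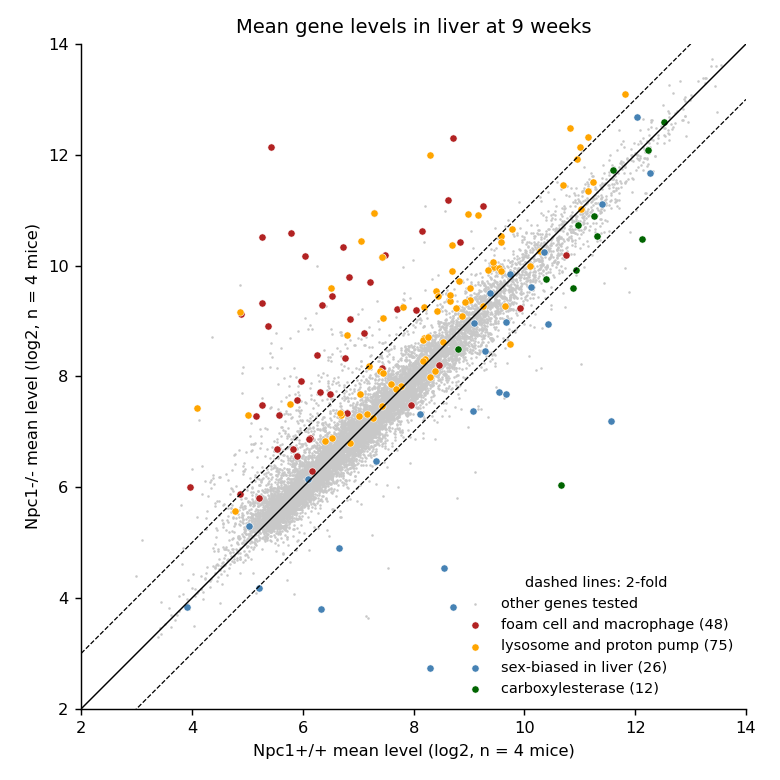
Mean log2 level of each of the 12638 genes tested in Npc1-/- livers (vertical axis) against Npc1+/+ livers (horizontal axis) at 9 weeks, n = 4 mice each, with genes of 4 lists in colour and lines at a 2-fold difference. Most macrophage and lysosomal genes lie above the diagonal, and most carboxylesterases and genes with male-biased or female-biased expression lie on or below it.

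The strongest rises were in genes of lipid-laden macrophages. Gpnmb, a glycoprotein of stressed lysosomes in foam cells, read 12.31, 12.04, 12.10 and 12.12 in Npc1-/- livers, against 6.00, 5.28, 5.34 and 5.08 in Npc1+/+ livers. It was near the top of the scale in every Npc1-/- mouse and near background in every Npc1+/+ mouse, a 105-fold difference (log2 change 6.72 ± 0.16, adjusted p = 1.22e-31). Mmp12, the macrophage elastase, read 10.77, 10.25, 10.24 and 10.78 in Npc1-/- livers, against 5.47, 5.39, 5.14 and 5.07 in Npc1+/+ livers, a 37.8-fold rise (5.24 ± 0.19, adjusted p = 1.46e-25). Next in size were Clec7a, the receptor for fungal beta-glucan (27.8-fold), Gpr137b, a lysosomal membrane protein (19.5-fold), and its transcribed relative Gpr137b-ps (27.4-fold), whose probes may share signal with it. Il7r, the interleukin-7 receptor alpha chain, rose 20.4-fold, Lpl, the lipoprotein lipase that frees fatty acids for uptake, rose 17.4-fold and Lilr4b, an inhibitory receptor of myeloid cells, rose 16.8-fold. Anxa1, a membrane-binding protein that restrains inflammation, rose 13.3-fold, and the galectin Lgals3 and the actin-capping protein Capg rose 12.2-fold and 11.6-fold.

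Of 19 foam cell genes tested, 16 rose and 3 fell, with a median change of 2.47; over all genes 17.6% rose, 15.5% fell and the median was -0.01. Igf1, which hepatocytes make in bulk, fell by 0.57. The other 2 that fell were named after their values were seen: the monoglyceride lipase Mgll and Cd5l, a secreted protein of macrophages. The fall of Cd5l did not pass the test without Npc1-/- mouse 1 (adjusted p = 0.136) or Npc1+/+ mouse 4 (adjusted p = 0.0625). Trem2, a lipid receptor of foam cells and microglia, averaged 8.39 ± 0.09 in Npc1-/- livers and 6.26 ± 0.14 in Npc1+/+ livers (SD, n = 4 each), a 4.39-fold rise with adjusted p = 1.38e-19. Of 29 general macrophage genes 27 rose and the other 2 did not pass the test (median 1.67). Lysozyme (Lyz2) rose 12.0-fold, the integrin chain Itgb2 7.68-fold and the membrane protein Cd53 7.53-fold. Csf1r, the receptor for the macrophage growth factor, rose 2.21-fold, and Adgre1, an adhesion receptor that marks mouse macrophages, rose 1.46-fold. Averaged over the list, macrophage genes stood at 8.09 to 8.34 in Npc1-/- livers and 6.51 to 6.60 in Npc1+/+ livers. RNA of whole liver was measured, so that more cells of a type and more RNA per cell cannot be told apart, here or for any list that follows.

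PU.1, the transcription factor that macrophages depend on, is encoded by Spi1, which rose by 1.15 ± 0.12. It binds a core that is often spelled GAGGAAG. This string or its reverse complement CTTCCTC stood in the promoter window (RefSeq, GRCm38.p6, 250 bases before to 50 after the start of the gene) of 10 of 36 foam cell and macrophage genes (27.8%), of 15.9% of the tested genes and of 15.4% of all 27025 genes with a window. Of the 10 macrophage genes with the string 8 rose, and of the 26 without it 23 rose. The stretch of the Mmp12 promoter that holds the string is shown because Mmp12 had the second largest rise among these lists. It lies at chr9:7344270-7344356 on the plus strand, with the string in capitals as its reverse complement.
Mmp12: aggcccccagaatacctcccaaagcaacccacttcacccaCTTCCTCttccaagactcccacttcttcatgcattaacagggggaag

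**Figure D2:**
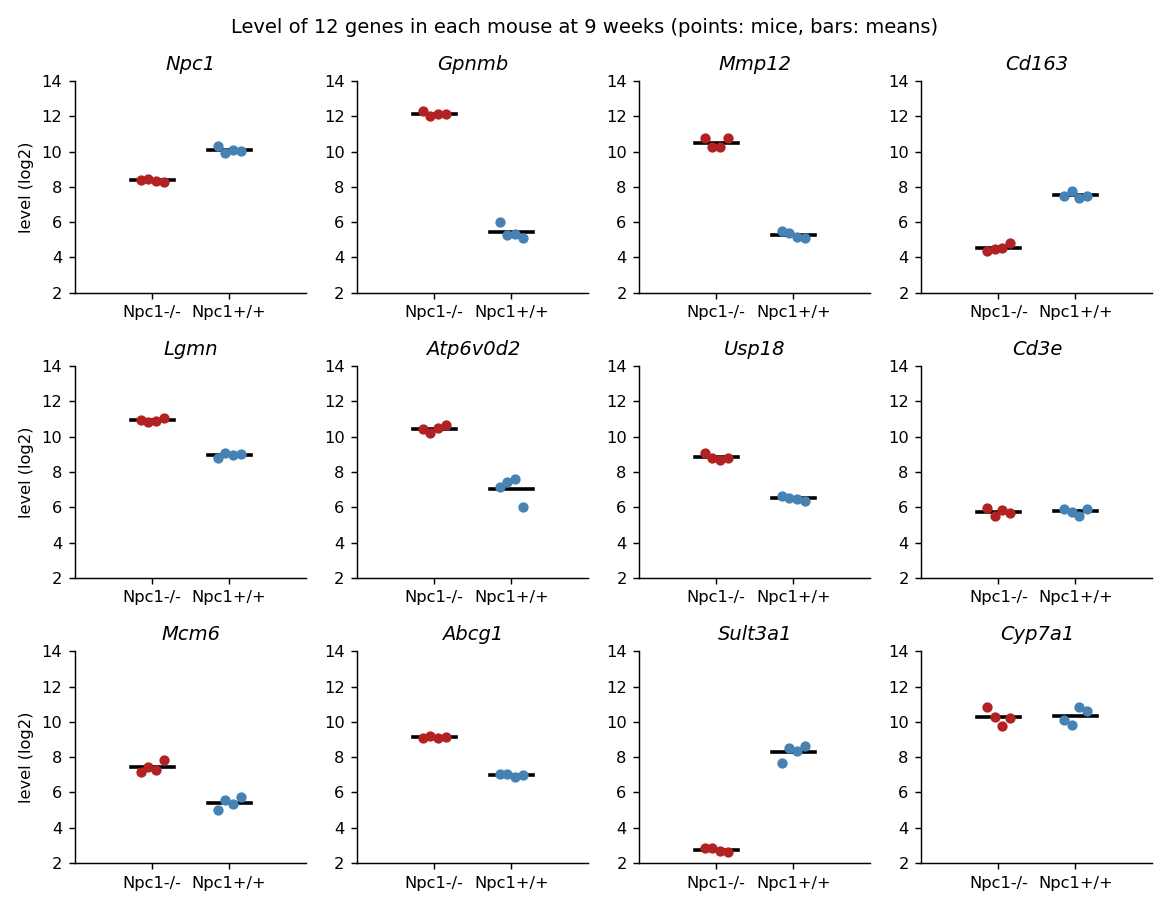
Log2 level of 12 genes in each mouse at 9 weeks, Npc1-/- (left) and Npc1+/+ (right) in each panel, n = 4 mice per genotype, with a bar at the group mean. Groups stand apart in every panel except those of Cd3e and Cyp7a1.

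Genes that mark resident Kupffer cells went the other way from the macrophage lists. Cd163, the haemoglobin scavenger receptor, read 4.37, 4.46, 4.56 and 4.80 in Npc1-/- livers, against 7.50, 7.77, 7.40 and 7.46 in Npc1+/+ livers. All 4 Npc1-/- mice were under the array median and all 4 Npc1+/+ mice well over it (Cd163 fell by 2.98 ± 0.18, 7.92-fold, adjusted p = 4.13e-18). Clec4f, the Kupffer cell lectin, was 6.73, 7.13, 7.22 and 7.28 in Npc1-/- livers and 8.93, 9.07, 8.84 and 9.08 in Npc1+/+ livers, 3.70-fold lower with adjusted p = 1.38e-15. Timd4, a receptor for the phosphatidylserine of dying cells, was 2.15-fold lower, and Folr2, the folate receptor of tissue macrophages, was 2.35-fold lower (adjusted p = 2.60e-10 and 9.08e-13). Of 14 Kupffer cell genes tested 7 fell and 2 rose, with a median of -0.31. The 2 that rose, Hmox1, the enzyme that breaks down haem, and Il18bp, the secreted inhibitor of interleukin-18, are not restricted to Kupffer cells. Vsig4, the complement receptor of Kupffer cells, was 8.10 ± 0.30 in Npc1-/- livers and 8.60 ± 0.28 in Npc1+/+ livers with overlapping mice (adjusted p = 0.0188). That call was lost without Npc1-/- mouse 1, the case with the highest adjusted p (0.0793), and without Npc1-/- mouse 4 or Npc1+/+ mouse 2, 3 or 4 (adjusted p between 0.0522 and 0.0607).

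Lysosomal genes rose across enzymes, membrane proteins and the proton pump. Of 38 hydrolases and activators, 29 rose and 2 fell (median 0.78); of 21 membrane proteins, 11 rose and 1 fell (median 0.28); and all 16 subunits of the vacuolar proton pump that were tested rose (median 0.55). Lgmn, the asparagine endopeptidase, read 10.95, 10.82, 10.91 and 11.05 in Npc1-/- livers, against 8.80, 9.10, 8.99 and 9.01 in Npc1+/+ livers, a 3.89-fold rise (1.96 ± 0.10, adjusted p = 1.02e-20). Ctsd, the main aspartyl protease of lysosomes, rose 3.15-fold, and Hexa and Galc, which remove sugars from gangliosides and from galactosylceramide, each rose 3.34-fold. Cathepsin C (Ctsc), which activates granule proteases of neutrophils and lymphocytes, went down: 8.75, 8.52, 8.57 and 8.51 in Npc1-/- livers and 9.66, 9.95, 9.66 and 9.68 in Npc1+/+ livers, with no overlap (2.22-fold lower, adjusted p = 7.06e-10). Ctsc is no member of the rule for named genes and was picked after its values were seen, as the larger of the 2 falls among hydrolases. The second was acid alpha-glucosidase (Gaa), 1.24-fold lower and picked the same way.

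Pump subunits differed in size of change. Atp6v0d2, an isoform of the membrane sector that macrophages and osteoclasts use, read 10.46, 10.19, 10.48 and 10.65 in Npc1-/- livers, against 7.14, 7.45, 7.58 and 6.02 in Npc1+/+ livers. Npc1+/+ mouse 4 was the lowest of its group, and the groups did not overlap (10.5-fold, adjusted p = 5.45e-16). Its broadly expressed counterpart Atp6v0d1 rose 1.28-fold (9.35 to 9.39 in Npc1-/- livers, 8.92 to 9.15 in Npc1+/+ livers; adjusted p = 0.00438). Between them lay Atp6v1b2 at 3.21-fold and Atp6v1a at 2.32-fold, which form the catalytic head of the pump, and Tcirg1 at 2.09-fold. Membrane proteins showed the same spread, with Cd63, a tetraspanin of lysosomes and multivesicular bodies, at 10.1-fold (3.34 ± 0.27), Lamp1 at 1.21-fold (adjusted p = 0.000466) and Lamp2 at 11.34 ± 0.12 in Npc1-/- livers and 11.15 ± 0.13 in Npc1+/+ livers, which did not pass the test (adjusted p = 0.0533). Macrophage genes moved with these lists in the same mice, at the levels given above, and their part in the rise of lysosomal genes was not tested.

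MiT/TFE proteins, the transcription factors that switch on lysosomal genes, bind an E-box spelled TCACGTG, and lysosomal promoters with it are shown because the hydrolase and pump genes moved together. Such windows were available for 10070 of the genes tested. The motif or its reverse complement CACGTGA, which overlap where the box is extended to TCACGTGA, stood in 17 of 64 lysosomal and pump genes (26.6%), in 6.76% of the tested genes and in 4.29% of all 27025 genes with a window. It stood in 0 of 36 macrophage genes with a window. Of the 17 lysosomal genes with the motif 13 rose, and of the 47 without it 34 rose. Capitals mark the motif in these stretches, which read 5′ to 3′ on the strand of the gene (the minus strand for all 4), at chr12:102439096-102439182, chrX:134601187-134601255, chr7:142388026-142388077 and chr16:44139345-44139431.
Lgmn: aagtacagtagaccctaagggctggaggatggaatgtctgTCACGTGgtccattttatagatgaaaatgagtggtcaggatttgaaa
Gla: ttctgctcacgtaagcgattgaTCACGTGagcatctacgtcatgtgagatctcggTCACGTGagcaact
Ctsd: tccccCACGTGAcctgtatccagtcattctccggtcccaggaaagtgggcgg
Atp6v1a: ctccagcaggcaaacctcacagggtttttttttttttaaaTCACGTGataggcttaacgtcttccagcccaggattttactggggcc
Gla, the alpha-galactosidase that is missing in Fabry disease, holds 2 copies in this stretch, and its transcript rose 3.85-fold. Among the factors themselves Mitf rose 1.99-fold (6.92, 6.55, 6.56 and 6.82 in Npc1-/- livers, 5.94, 5.67, 5.78 and 5.48 in Npc1+/+ livers; adjusted p = 7.12e-10). Tfeb averaged 6.34 ± 0.12 in Npc1-/- livers and 6.44 ± 0.14 in Npc1+/+ livers, and Tfe3 averaged 6.80 ± 0.05 in Npc1-/- livers and 6.82 ± 0.16 in Npc1+/+ livers; neither passed the test (adjusted p = 0.480 and 0.877). Rragd, a small GTPase that holds these factors and mTORC1 at the lysosome, rose 3.52-fold, and its partner Rragc 1.58-fold. The list of 20 autophagy genes that holds these factors split evenly, with 5 higher and 5 lower (median 0.14). The autophagy kinase Ulk1 fell 1.65-fold and the autophagosome protein Map1lc3b 1.38-fold.

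Innate immune genes rose, and those of T cells and NK cells did not pass the test in either direction. Of 17 interferon response genes 14 rose and the other 3 did not pass the test (median 0.98). Usp18, the protease that removes the ubiquitin-like protein ISG15, averaged 8.85 ± 0.18 in Npc1-/- livers and 6.51 ± 0.11 in Npc1+/+ livers, a 5.06-fold rise with adjusted p = 1.46e-12. Ifit1, Ifit3 and Rsad2, which block viral RNA and viral budding, rose 2.85-fold, 2.94-fold and 2.83-fold, and the transcription factor Irf7 rose 1.98-fold. Of 19 genes of the TNF, interleukin-1 and Toll receptor list 13 rose (median 0.58), among them Tlr13 at 6.12-fold, Tlr1 at 2.93-fold, Casp1 at 2.47-fold and the brake on NF-kappaB Tnfaip3 at 2.46-fold. Il1b, which encodes interleukin-1 beta, averaged 5.08 ± 0.13 in Npc1-/- livers and 5.60 ± 0.25 in Npc1+/+ livers (adjusted p = 0.0598), and Tnf lay under the filter on low values in both groups.

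Chemokines and their receptors were mixed, with 7 of 14 higher and a median of 0.16 that turned to -0.03 after median centring. Ccl3, which draws in monocytes, read 6.19, 6.83, 6.69 and 6.65 in Npc1-/- livers and 4.90, 4.62, 4.85 and 4.66 in Npc1+/+ livers, a 3.56-fold rise. The receptor Cxcr4 rose 4.98-fold and Cxcl16, a membrane-bound chemokine that also takes up oxidised lipids, 2.74-fold. Ccl24, an eosinophil chemokine of alternatively activated macrophages, fell 2.33-fold (5.60, 5.46, 5.10 and 5.67 in Npc1-/- livers, 6.71, 6.66, 6.55 and 6.80 in Npc1+/+ livers; adjusted p = 1.01e-09). Ccl2, the main monocyte chemokine, and its receptor Ccr2 lay under the filter on low values. MHC class II genes rose, H2-Aa by 4.33-fold, its chaperone Cd74 by 2.44-fold and H2-Eb1 by 2.30-fold, while the costimulator Cd86 fell 1.34-fold with both genotypes under the median of all values. Of the 6 class II genes tested 5 rose (median 1.26).

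Of 9 T cell and NK cell genes tested with limma, 0 passed the adjusted test and 1 had an unadjusted p under 0.05 (median -0.01). With quantile normalization or median centring 2 of them were lower, without Npc1+/+ mouse 2 there was 1 lower, and without a filter or with all 78 arrays there was 1 higher. Cd3e, a chain of the T cell receptor complex, averaged 5.75 ± 0.19 in Npc1-/- livers and 5.76 ± 0.18 in Npc1+/+ livers. Among 9 B cell genes 2 rose and 2 fell, where over all genes 17.6% rose and 15.5% fell. The adaptor Blnk rose 5.07-fold and the lectin Cd22 1.97-fold, and the B cell coactivator Pou2af1 fell 1.31-fold and the IgM receptor Fcmr 1.22-fold. Both falls were lost without Npc1+/+ mouse 4 (adjusted p = 0.0695 for Pou2af1 and 0.115 for Fcmr), and that of Fcmr also without Npc1+/+ mouse 1 (0.129) or Npc1-/- mouse 2 (0.0594) or 4 (0.0963). Of 13 neutrophil genes 6 rose and the other 7 did not pass the test (median 0.43), with Lcn2, the iron-siderophore trap that hepatocytes also secrete, at 4.75-fold, S100a8 at 2.01-fold and Csf3r, the G-CSF receptor, at 1.94-fold.

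Some cell cycle and DNA replication genes rose at 9 weeks. Of 26 tested 9 rose and the other 17 did not pass the test (median 0.18), where over all genes 17.6% rose. The 9 included Mcm2 to Mcm6 of the MCM helicase, the ring that opens DNA for copying. This subset was singled out after the values were seen. Mcm6 read 7.14, 7.46, 7.29 and 7.84 in Npc1-/- livers, against 4.98, 5.55, 5.34 and 5.76 in Npc1+/+ livers. All 4 Npc1-/- mice lay above all 4 Npc1+/+ mice, whose mean was under the median of all values, so that the rise of 4.07-fold is a lower bound (2.03 ± 0.29, adjusted p = 3.54e-07). Mcm5 rose 2.29-fold, Mcm3 1.98-fold, Mcm4 1.84-fold and Mcm2 1.79-fold. Rrm1, which makes deoxynucleotides, rose 1.78-fold. Chek1, the checkpoint kinase that guards replication forks, rose 2.45-fold, the primase subunit Prim1 1.98-fold and the helicase partner Gins1 1.92-fold. Chek1, Prim1 and Gins1 are not on the list of 26 and were named because their genotype effect differed between ages. Mki67, the general marker of dividing cells, read 5.16 ± 0.19 in Npc1-/- livers and 5.01 ± 0.33 in Npc1+/+ livers (SD, n = 4 each) and did not pass the test (adjusted p = 0.494).

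E2F factors, which switch on replication genes, bind a site often spelled TTTNNCGC, and 3 promoters with it are shown because these genes moved together. The motif was searched after the values were seen, on both strands, and the 2 forms overlap where a site is palindromic. It stood in 5 of 22 cell cycle genes with a promoter window (22.7%), in 9.32% of the tested genes and in 5.93% of all genes with a window. Capitals mark it at chr1:128359768-128359855 (minus strand), chr8:75109316-75109403 (plus strand) and chr1:20820263-20820333 (minus strand). Mcm6, Mcm5 and Mcm3 each hold it in both orientations. In Mcm6 and Mcm5 the 2 forms overlap, and capitals mark only the first.
Mcm6: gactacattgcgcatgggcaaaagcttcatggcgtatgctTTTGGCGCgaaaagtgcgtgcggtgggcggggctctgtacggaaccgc
Mcm5: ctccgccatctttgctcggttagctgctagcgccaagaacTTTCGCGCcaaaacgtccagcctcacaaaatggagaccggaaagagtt
Mcm3: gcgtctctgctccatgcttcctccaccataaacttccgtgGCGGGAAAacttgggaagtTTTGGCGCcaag

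The rise of 3 replication genes differed from that at 11 weeks. Between 9 and 7 weeks the effect differed by the test in 0 of the 26 cell cycle genes. Of the 5 genes Mcm2 to Mcm6, 3 were higher at 7 weeks already. Chek1, outside that list, had a higher effect at 9 weeks than at 7 weeks by the test. Mcm6 stood 0.74 higher in Npc1-/- livers at 7 weeks (adjusted p = 0.0582) and 0.00 at 11 weeks, when it read 5.05 to 5.66 in Npc1-/- livers and 5.03 to 5.71 in Npc1+/+ livers. The difference between its genotype effect at 9 weeks and at 11 weeks was 2.02 ± 0.41 (limma interaction, adjusted p = 0.00235), for Chek1 it was 1.56 ± 0.30 (0.00102) and for Mcm5 it was 1.20 ± 0.24 (0.00216). Over all genes 2.23% had a genotype effect that was higher at 9 weeks than at 11 weeks. Of the 26 cell cycle genes 3 did, Mcm6 and Mcm5 among them, and Chek1 is not on that list. Against the mean of 7 and 11 weeks, Chek1 was 1.39 ± 0.26 higher at 9 weeks (adjusted p = 0.00405). In the same comparison Mcm6 was 1.65 ± 0.36 higher (0.0143), a call that was lost without Npc1+/+ mouse 1 (0.0549) or mouse 3 (0.0532).

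**Figure D3:**
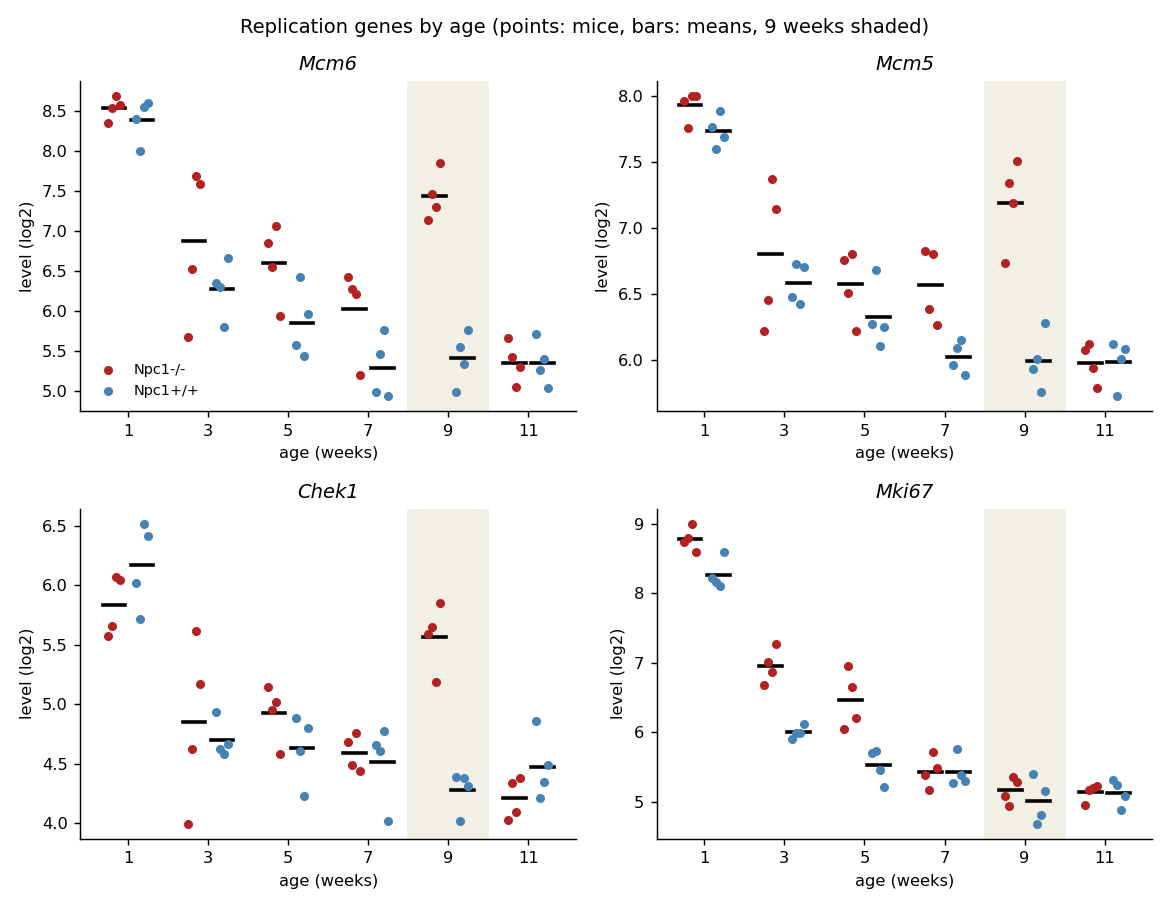
Log2 level of Mcm6, Mcm5, Chek1 and Mki67 in each mouse at each age from 1 to 11 weeks (horizontal axis), Npc1-/- (left of each pair) and Npc1+/+ (right), n = 4 mice per genotype and age, with a bar at the group mean. At 9 weeks the genotypes stand apart for Mcm6, Mcm5 and Chek1 and overlap for Mki67, and at 11 weeks they overlap for all 4 genes.

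Stress genes rose in some pathways and not in others. Of 16 p53 target and apoptosis genes 9 rose and the other 7 did not pass the test (median 0.45): the growth arrest genes Gadd45b and Gadd45a rose 4.08-fold and 2.72-fold, Ccng1, a direct p53 target, rose 1.74-fold, and Mlkl, the executioner of necroptosis, rose 1.99-fold. Atf3, a transcription factor induced by many stresses, read 8.84, 8.67, 8.77 and 9.03 in Npc1-/- livers, against 5.50, 5.79, 6.36 and 5.98 in Npc1+/+ livers. It was high in every Npc1-/- mouse without overlap (7.57-fold, adjusted p = 1.20e-16), while Ddit3, the death factor of endoplasmic reticulum stress, rose 1.44-fold. Of 18 targets of Nrf2, the sensor of oxidants, 10 rose (median 0.36), with the glutathione peroxidase Gpx3 at 2.62-fold, sulfiredoxin Srxn1 at 2.20-fold and the quinone reductase Nqo1 at 1.99-fold. The subunits of the enzyme that starts glutathione synthesis overlapped between genotypes: Gclc averaged 10.89 ± 0.15 in Npc1-/- livers and 10.82 ± 0.13 in Npc1+/+ livers, and Gclm 10.47 ± 0.15 in Npc1-/- livers and 10.59 ± 0.12 in Npc1+/+ livers (adjusted p = 0.789 and 0.451). Of 11 annexins and S100 proteins, which bind calcium and membranes, 8 rose (median 0.81), with Anxa3 at 7.63-fold, Anxa2 at 3.71-fold, Anxa5 at 3.52-fold and S100a11 at 2.35-fold. Macrophages make several of these too. Their genes stood at 8.09 to 8.34 in Npc1-/- livers and 6.51 to 6.60 in Npc1+/+ livers as above, and their part in these rises was not tested.

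Many matrix genes rose. Of 14 collagens 10 rose (median 0.38), and of 21 genes of activated stellate cells, the collagen-making pericytes of the liver, 12 rose (median 0.41). Vim, the intermediate filament vimentin of mesenchymal cells and macrophages, read 11.09, 10.66, 10.93 and 11.25 in Npc1-/- livers, against 8.41, 8.75, 8.48 and 8.60 in Npc1+/+ livers. The 2 groups were far apart (5.36-fold, adjusted p = 6.33e-22). The fibre-organising proteoglycan Dcn rose 1.67-fold, the growth factor Tgfb1 1.81-fold, the protease inhibitor Timp3 1.75-fold, Col6a3 1.69-fold and Col1a2 1.39-fold. Col1a1 and Col3a1, the main fibrillar collagens, rose 1.34-fold and 1.31-fold, and both calls were lost without Npc1-/- mouse 1 (adjusted p = 0.0732 for Col1a1 and 0.0545 for Col3a1). Acta2, the smooth muscle actin of activated stellate cells, averaged 6.29 ± 0.22 in Npc1-/- livers and 6.92 ± 0.62 in Npc1+/+ livers, with overlap, and did not pass the test (adjusted p = 0.161). Of 10 metalloproteinases and relatives 4 rose (median 0.22), among them the matrix enzymes Mmp14 at 1.76-fold and Mmp2 at 1.44-fold, and the leukocyte sheddase Adam8 at 4.75-fold.

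Genes of the sinusoidal endothelium, the fenestrated lining of liver capillaries, were lower. Of 24 tested 17 fell, with a median of -0.46, and the mean over the list was 7.29 to 7.49 in Npc1-/- livers and 7.61 to 7.90 in Npc1+/+ livers. Dnase1l3, a secreted nuclease, read 7.21, 7.27, 7.55 and 7.52 in Npc1-/- livers, against 8.28, 8.66, 8.70 and 8.62 in Npc1+/+ livers. Every Npc1-/- mouse was below every Npc1+/+ mouse (2.26-fold lower, adjusted p = 4.35e-13). The semaphorin and VEGF coreceptor Nrp1 fell 2.14-fold, the angiopoietin receptor Tek 1.67-fold and the scavenger receptor Stab2 1.40-fold. Clec1b, a lectin shared with platelets and Kupffer cells, rose 2.13-fold (adjusted p = 1.96e-09). Of 12 bile duct genes 3 rose and the other 9 did not pass the test (median 0.11), where over all genes 17.6% rose. Krt19 and Epcam, which define bile duct cells, were among the 9: Krt19 averaged 5.55 ± 0.08 in Npc1-/- livers and 5.73 ± 0.12 in Npc1+/+ livers, and Epcam 5.65 ± 0.11 in Npc1-/- livers and 5.50 ± 0.12 in Npc1+/+ livers (adjusted p = 0.226 and 0.245). The 3 that rose were Anxa3, described above, and Krt8 and Krt18, the keratins that hepatocytes also make, at 1.95-fold and 1.62-fold.

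**Figure D4:**
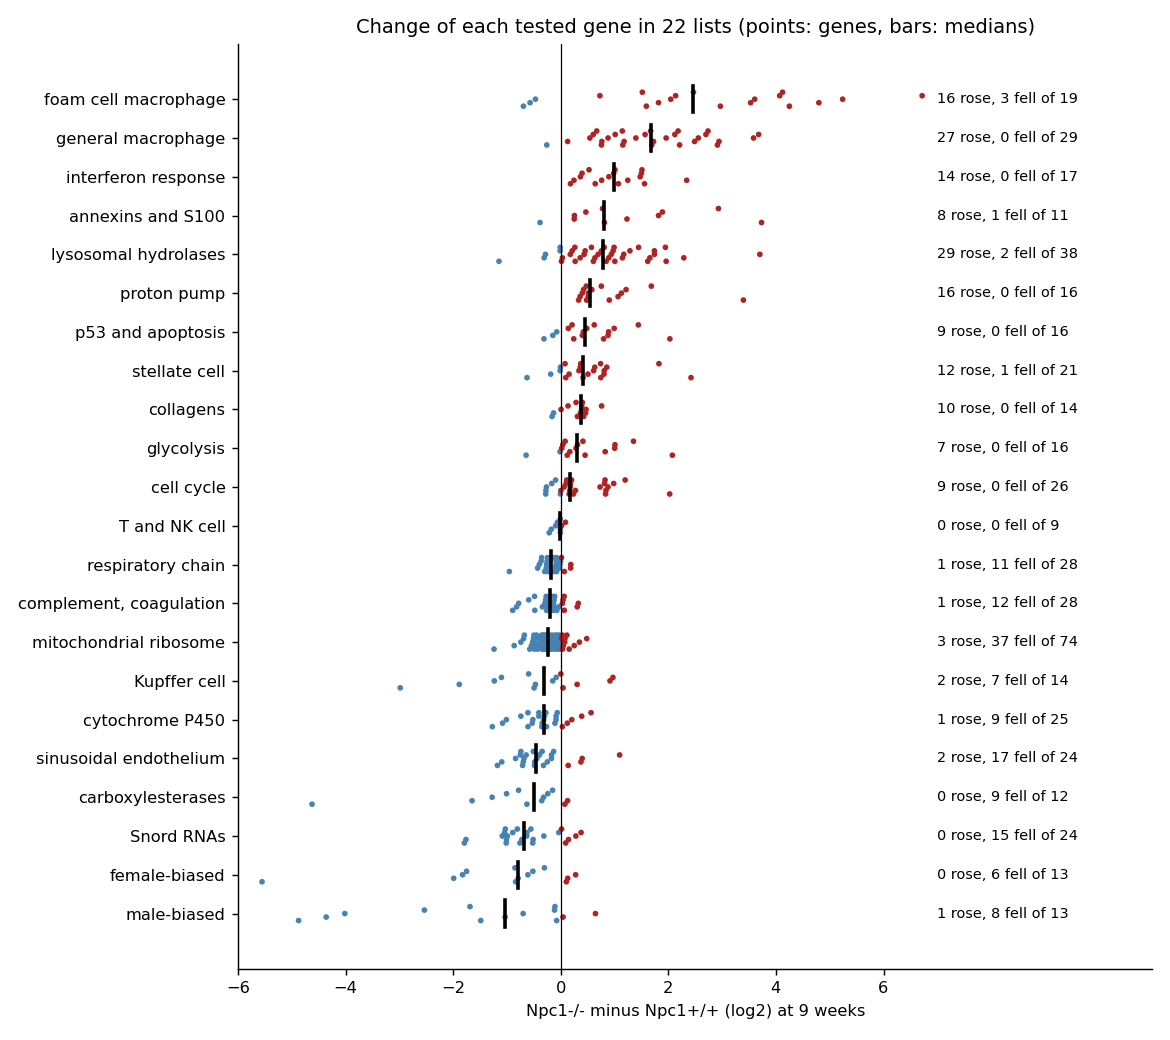
Log2 change (Npc1-/- minus Npc1+/+) at 9 weeks of each tested gene (points) in 22 lists, red above 0 and blue below, with the list median as a bar and the number of genes that rose and fell at the right. Interferon and proton pump genes lie to the right of 0, and foam cell and macrophage genes mostly so. Endothelial, carboxylesterase, small nucleolar RNA and sex-biased genes lie mostly to the left.

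Sterol genes gave no uniform shift. Of 17 enzymes of cholesterol synthesis 1 rose and 2 fell (median 0.20); with the 8 arrays fitted alone 6 rose and 3 fell. Sqle, which oxidises squalene, read 9.32, 9.61, 9.28 and 9.37 in Npc1-/- livers, against 7.40, 8.67, 7.56 and 7.58 in Npc1+/+ livers. Npc1+/+ mouse 2 was higher than its group but below all Npc1-/- mice (3.02-fold, adjusted p = 0.000559). Hmgcs1, which acts at the start of the pathway, averaged 10.60 ± 0.16 in Npc1-/- livers and 10.03 ± 0.25 in Npc1+/+ livers and did not pass the test (adjusted p = 0.101), while the late enzymes Tm7sf2 and Ebp fell 1.60-fold and 1.46-fold. Of the regulators, Srebf2, the master factor of the pathway, averaged 8.40 ± 0.09 in Npc1-/- livers and 8.12 ± 0.19 in Npc1+/+ livers (adjusted p = 0.0510), and Scap, which escorts its protein to the Golgi, fell 1.32-fold.

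Targets of LXR, the oxysterol receptor, moved in opposite directions. Abcg1, a cholesterol exporter of macrophages, read 9.06, 9.17, 9.11 and 9.16 in Npc1-/- livers, against 7.04, 7.04, 6.90 and 6.99 in Npc1+/+ livers, with a narrow spread and a wide gap (4.38-fold, adjusted p = 2.01e-21). Pltp, the phospholipid transfer protein, rose 2.76-fold. Abcg5 and Abcg8, which hepatocytes use to pump cholesterol into bile, fell 1.46-fold and 1.63-fold, and Srebf1, the factor that drives fatty acid synthesis, fell 2.08-fold. Abca1, an exporter that both cell types use, averaged 9.85 ± 0.08 in Npc1-/- livers and 9.73 ± 0.10 in Npc1+/+ livers (adjusted p = 0.377). Of 10 genes of the list 3 rose and 4 fell (median -0.21).

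Some genes of fat synthesis fell. Of 19 tested 9 fell and the other 10 did not pass the test, with a median of -0.43. Thrsp, a nuclear protein that rises with lipid synthesis, read 9.33, 10.49, 10.13 and 9.85 in Npc1-/- livers, against 11.67, 12.03, 11.88 and 11.70 in Npc1+/+ livers. No mouse overlapped (3.65-fold lower, adjusted p = 0.00482). Malic enzyme (Me1), which supplies NADPH, fell 2.28-fold, and Mlxipl, the carbohydrate-sensing factor ChREBP, fell 2.23-fold. The central enzymes overlapped between the genotypes and did not pass the test: Fasn averaged 9.43 ± 0.35 in Npc1-/- livers and 10.01 ± 0.42 in Npc1+/+ livers (adjusted p = 0.104), and Scd1 11.40 ± 0.21 in Npc1-/- livers and 11.66 ± 0.39 in Npc1+/+ livers (adjusted p = 0.505). Of 10 lipid droplet genes 4 rose, among them the coat proteins Plin3 at 2.25-fold and Plin4 at 2.09-fold, and 1 fell, Cideb, which enlarges nascent lipoproteins, at 1.33-fold lower (median 0.14). Apoa4, an apolipoprotein of hepatic lipid loading, rose 2.05-fold, Apoc4 fell 1.81-fold, and Apob, the backbone of VLDL, averaged 12.68 ± 0.07 in Npc1-/- livers and 12.61 ± 0.04 in Npc1+/+ livers (adjusted p = 0.353). Fabp4 and Pparg, which fat cells and macrophages share, rose 7.45-fold and 1.98-fold.

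Of 16 glycolysis genes 7 rose and the other 9 did not pass the test (median 0.30). Among them were isoforms typical of cells other than hepatocytes: Hk3, a hexokinase of myeloid cells, rose 4.21-fold, Pkm, the pyruvate kinase of non-hepatic tissues, 2.55-fold, Hk2 2.01-fold, the platelet-type phosphofructokinase Pfkp 2.00-fold and Aldoa 1.77-fold. Hk3 read 7.86, 7.64, 7.77 and 8.03 in Npc1-/- livers, against 5.97, 5.65, 5.67 and 5.70 in Npc1+/+ livers, so the mice of each genotype kept within a narrow band of their own. Macrophage genes moved with these in the same mice, at the levels given above, and their part in the rise was not tested.

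The largest falls included hepatocyte genes that differ between the sexes, which the pattern of growth hormone secretion sets. Most of the 15 largest falls belong to neither sex-biased list. Ces3b, Dio1 and Slc22a7, described below, are among these, as are Cd163, Cyp3a16, n-R5s136, Paqr9 and Ugt3a1. Sult3a1, a sulfotransferase that female liver expresses, read 2.85, 2.86, 2.66 and 2.60 in Npc1-/- livers, against 7.69, 8.53, 8.35 and 8.62 in Npc1+/+ livers. It stood near the bottom of the scale in every Npc1-/- mouse and well over the median in every Npc1+/+ mouse, at least 47.0-fold lower (adjusted p = 3.00e-22). Slco1a1, an organic anion importer that male liver expresses more, read 4.74, 3.60, 3.57 and 3.43 in Npc1-/- livers, against 8.22, 8.36, 8.69 and 9.56 in Npc1+/+ livers (29.3-fold lower). The urinary protein gene Mup3, also male-biased and a close relative of other Mup genes whose transcripts its probes may read, fell 20.5-fold. Of 13 female-biased genes 6 fell (median -0.79), and of 13 male-biased genes 8 fell (median -1.03), so both lists were lower. Averaged over each list, male-biased genes stood at 6.16 to 6.46 in Npc1-/- livers and 7.38 to 7.98 in Npc1+/+ livers, and female-biased genes at 7.81 to 8.00 in Npc1-/- livers and 8.84 to 9.16 in Npc1+/+ livers. Cux2, the repressor of male genes in female liver, fell 1.80-fold (adjusted p = 0.00146).

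Within the growth hormone list of 15 genes 6 fell and 3 rose (median -0.41). The receptor Ghr fell 1.36-fold, its product Igf1 1.49-fold and Igfals, which holds IGF-1 in the blood, 2.24-fold. The receptor Egfr fell 3.21-fold, and without Npc1+/+ mouse 4, the highest at 10.46, the other Npc1+/+ mice read 8.93 to 9.35 and still lay above all Npc1-/- mice at 7.53 to 8.20. The binding proteins Igfbp1 and Igfbp3 rose 2.98-fold and 1.62-fold. Socs2, an immediate target of growth hormone, ranged from 7.14 to 7.36 among Npc1-/- livers and from 7.00 to 8.74 among Npc1+/+ livers, and did not pass the test (adjusted p = 0.196). Dio1, the deiodinase that activates thyroid hormone, read 5.77, 5.81, 5.79 and 5.85 in Npc1-/- livers, against 8.43, 8.75, 8.72 and 9.24 in Npc1+/+ livers, a 7.90-fold fall with adjusted p = 3.13e-09.

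Hepatocyte enzymes fell in several families, where over all genes 15.5% fell and 17.6% rose. Of 12 carboxylesterases, which cleave esters of drugs and lipids, 9 fell (median -0.49), or 5 without Npc1+/+ mouse 2. Ces3b read 7.27, 5.92, 5.42 and 5.54 in Npc1-/- livers, against 10.04, 10.59, 10.73 and 11.29 in Npc1+/+ livers, and fell 24.7-fold, with Npc1-/- mouse 1 the highest of its group. Ces2a fell 2.42-fold and Ces1e 2.01-fold. Of 25 cytochrome P450 genes 9 fell and 1 rose (median -0.32). Cyp2c54 was 2.42-fold lower and Cyp2j5 2.02-fold lower, whereas Cyp2e1, one of the brightest, averaged 13.30 ± 0.03 in Npc1-/- livers and 13.27 ± 0.05 in Npc1+/+ livers (adjusted p = 0.789). Of 15 genes of bile acid synthesis 3 fell and 2 rose (median -0.12), near the shares over all genes. Cyp7b1, of the acidic pathway, fell 3.22-fold and Cyp27a1 1.46-fold, and Cyp39a1 rose 1.88-fold. Cyp7a1, the rate-limiting enzyme of the main pathway, read 10.86, 10.25, 9.76 and 10.19 in Npc1-/- livers and 10.09, 9.80, 10.85 and 10.62 in Npc1+/+ livers, with full overlap (adjusted p = 0.931).

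Of 14 transporters of bile acids, anions and drugs 5 fell and 3 rose (median -0.02), where over all genes 15.5% fell and 17.6% rose. The anion importer Slc22a7 fell 7.13-fold, the bile salt export pump Abcb11 1.55-fold with overlapping mice, and the basolateral exporter Abcc4 rose 2.58-fold (7.79 to 7.98 in Npc1-/- livers, 6.33 to 6.97 in Npc1+/+ livers). Of 25 conjugation enzymes 9 fell and 3 rose (median -0.11). Gstt3 was 1.93-fold lower and Ugt2b1 1.61-fold lower, while Gstp1 rose 1.56-fold. Among the transcription factors of hepatocyte identity Hnf4a fell 1.37-fold, Nr5a2 1.35-fold and Cebpa 1.64-fold with overlapping mice. Their list of 19 had 6 lower (median -0.29), and Ttr, the plasma carrier of thyroid hormone and retinol-binding protein, averaged 13.38 ± 0.08 in Npc1-/- livers and 13.28 ± 0.06 in Npc1+/+ livers (adjusted p = 0.288).

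Plasma proteins followed no single direction. Of 26 acute-phase genes 6 rose and 6 fell, where over all genes 17.6% rose and 15.5% fell. Orm1, orosomucoid, fell 1.82-fold and the constitutive serum amyloid Saa4 2.26-fold, whereas Saa3, the form that macrophages make, rose 1.52-fold and Lcn2 rose as above. The rise of Saa3 did not pass the test when all 78 arrays shared the fit (adjusted p = 0.201). Saa1, the classical acute-phase protein, averaged 6.38 ± 0.33 in Npc1-/- livers and 5.80 ± 0.82 in Npc1+/+ livers with overlap (adjusted p = 0.171). Of 28 complement and coagulation factors made by hepatocytes 12 fell (median -0.19), among them C8g at 1.86-fold lower, Mbl1, the mannose-binding lectin, at 1.77-fold lower and clotting factor F7 at 1.40-fold lower. Prothrombin (F2) averaged 12.00 ± 0.02 in Npc1-/- livers and 12.04 ± 0.04 in Npc1+/+ livers (adjusted p = 0.623). Of 24 urea cycle and amino acid genes 7 fell (median -0.14), with Otc, of the urea cycle, at 1.45-fold lower, and Cps1, its entry enzyme, at 12.97 ± 0.02 in Npc1-/- livers and 12.91 ± 0.09 in Npc1+/+ livers (adjusted p = 0.674).

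Mitochondrial genes were lower by small steps. Of 28 nuclear-encoded subunits of the respiratory chain 11 fell (median -0.17), and the list averaged 10.12 to 10.17 in Npc1-/- livers and 10.30 to 10.40 in Npc1+/+ livers. Uqcr10, of complex III, read 8.56, 8.85, 8.61 and 8.59 in Npc1-/- livers, against 9.48, 9.71, 9.88 and 9.78 in Npc1+/+ livers, and Ndufb8, of complex I, fell 1.94-fold. Both stood apart without overlap, Uqcr10 at 2.08-fold lower with adjusted p = 1.61e-07. Uqcr10 is not on the list of 28 and was named because its genotype effect differed between ages. Of 74 genes of the mitochondrial ribosome, a set added after the values were seen, 37 fell and 3 rose (median -0.24). Small nucleolar RNAs of the Snord class, which guide methylation of ribosomal RNA and were also added after the values were seen, fell in 15 of 24 cases (median -0.68). Their average was 7.02, 6.95, 6.94 and 6.78 in Npc1-/- livers, against 7.33, 7.26, 8.25 and 7.38 in Npc1+/+ livers. Npc1+/+ mouse 3 stood far above the rest, and without it 6 of the 23 then tested fell. The 5S ribosomal RNA copy n-R5s136, one of many copies of nearly the same sequence, fell 5.15-fold (9.19, 9.27, 9.90 and 9.75 in Npc1-/- livers, 12.02, 11.23, 12.51 and 11.81 in Npc1+/+ livers).

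The genotype effect at 9 weeks differed from that at 7 weeks by the test in 110 of 12638 genes (0.87%), higher in 63 (0.498%) and lower in 47 (0.372%). This count rests on few arrays: it was 16 without Npc1+/+ mouse 3, 34 without Npc1+/+ mouse 1 or Npc1-/- mouse 1, 39 without Npc1-/- mouse 2, 57 without Npc1+/+ mouse 4, 67 without Npc1-/- mouse 3 or 4, and 293 without Npc1+/+ mouse 2. Gpr137b-ps had a larger rise at 9 weeks than at 7 weeks, 4.78 against 3.61 (difference 1.17 ± 0.22, adjusted p = 0.00985), a call kept in all 8 fits without 1 mouse of 9 weeks. Its relative Gpr137b rose by 4.29 at 9 weeks and 4.15 at 7 weeks (difference 0.14 ± 0.25, adjusted p = 0.838). Pcgf1, a subunit of Polycomb repressive complex 1, rose by 1.11 at 9 weeks and stood at -0.08 at 7 weeks (difference 1.19 ± 0.26, adjusted p = 0.0224), also kept in all 8. Chek1 was also among the 63 genes that were higher, and Uqcr10 and n-R5s136 were among the 47 that were lower. Fits without 1 mouse are not given for them, and mice of 7 weeks were never left out.

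Between 9 and 11 weeks the differences were mainly deeper falls at 11 weeks. The genotype effect differed in 392 genes (3.1%), higher at 9 weeks in 282 (2.23%) and lower in 110 (0.87%); the total was 244 without Npc1-/- mouse 2 and 605 without Npc1+/+ mouse 2. Of the 282, 243 were below wild type at 11 weeks and 123 of these also at 9 weeks. Ces3a, a carboxylesterase of lipid breakdown, read 10.94, 10.76, 9.91 and 10.32 in Npc1-/- livers at 9 weeks, against 11.88, 12.10, 12.07 and 12.48 in Npc1+/+ livers. At 11 weeks it read 7.51, 7.48, 6.86 and 5.36 in Npc1-/- livers, against 12.26, 12.34, 12.38 and 12.35 in Npc1+/+ livers. The fall by 1.65 at 9 weeks was already without overlap, and that at 11 weeks was larger by 3.88 ± 0.49 (adjusted p = 1.41e-06). Car3, carbonic anhydrase 3, was 12.35 ± 0.19 in Npc1-/- livers and 12.92 ± 0.07 in Npc1+/+ livers at 9 weeks. The groups did not overlap, but with a spread shared over all ages the difference did not pass the test (adjusted p = 0.265). Its effect differed from that at 11 weeks by 3.18 ± 0.55 (adjusted p = 0.000228). At 11 weeks Car3 read 10.65, 9.93, 9.69 and 6.46 in Npc1-/- livers, with mouse 4 far below the others.

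Complement and coagulation factors had more falls at 11 weeks than at 9 weeks. At 9 weeks 12 of the 28 were lower and at 11 weeks 23, and for 16 of them the effects at 9 and 11 weeks differed by the test (median difference over the 28, 0.43). C9, the pore-forming end of the complement cascade, read 8.98, 8.52, 8.30 and 8.82 in Npc1-/- livers at 9 weeks, against 9.23, 9.52, 9.48 and 9.52 in Npc1+/+ livers. At 11 weeks its Npc1-/- livers read 6.28 to 7.46 and its Npc1+/+ livers 9.54 to 10.05 (difference of effects 2.03 ± 0.32, adjusted p = 6.64e-05). Ghr differed by 1.10 ± 0.16 (adjusted p = 1.87e-05), Ugt3a1, a glycosyltransferase, by 2.37 ± 0.28 (4.89e-07) and Paqr9, a membrane receptor, by 2.16 ± 0.28 (1.41e-06).

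**Figure D5:**
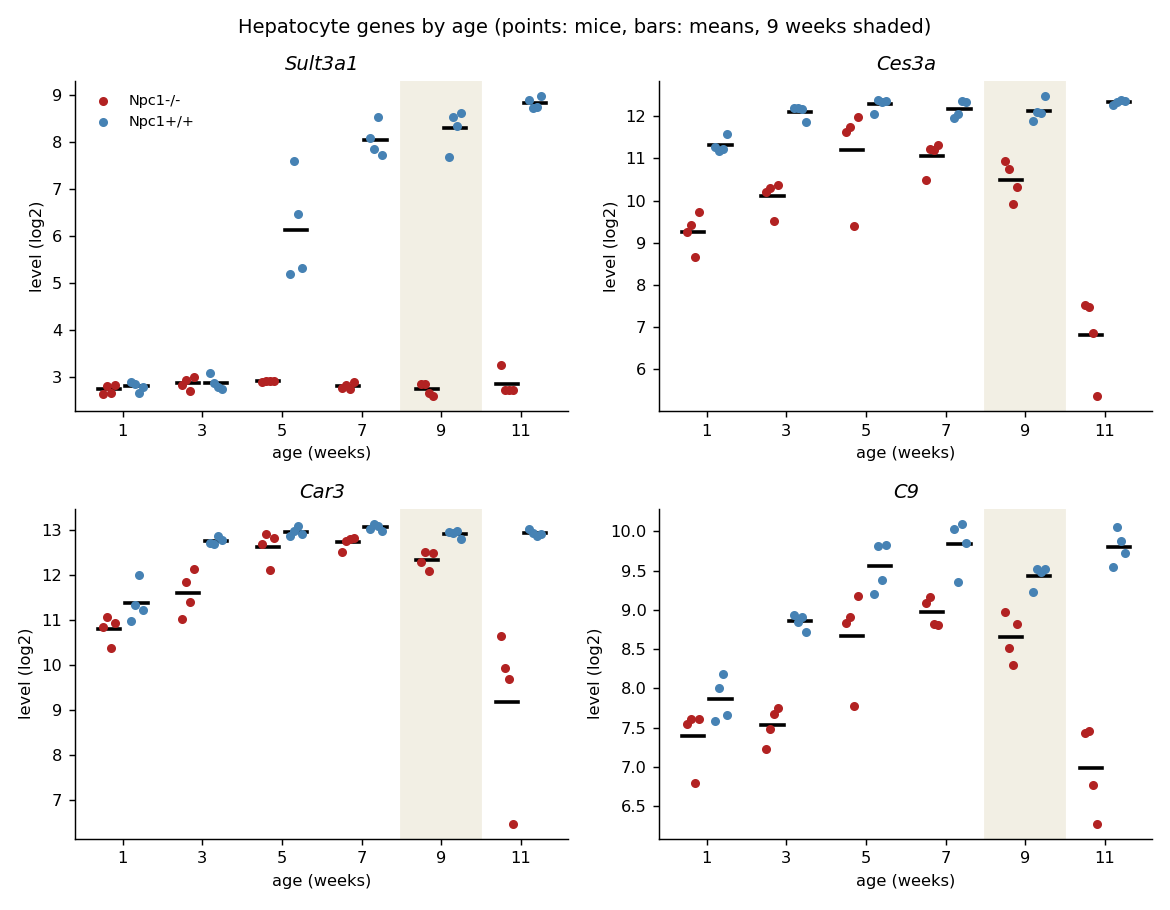
Log2 level of Sult3a1, Ces3a, Car3 and C9 in each mouse at each age from 1 to 11 weeks (horizontal axis), Npc1-/- (left of each pair) and Npc1+/+ (right), n = 4 mice per genotype and age, with a bar at the group mean. Sult3a1 stays near the bottom of the scale in Npc1-/- livers, while Ces3a, Car3 and C9 have their lowest mean in Npc1-/- livers at 11 weeks.

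Of the 110 genes whose effect was lower at 9 weeks, 102 stood above wild type at 11 weeks. Over all genes 0.87% had a lower effect at 9 weeks and 2.23% a higher one. The effect was lower in 2 of 38 lysosomal hydrolases, 0 of 21 lysosomal membrane proteins and 0 of 16 pump subunits. Among 29 general macrophage genes it was lower in 2 and higher in 1. Their median change was 1.67 at 9 weeks and 1.74 at 11 weeks. Ctsk, a collagen-degrading cathepsin, rose by 2.29 at 9 weeks and 3.60 at 11 weeks (difference -1.32 ± 0.21, adjusted p = 0.000105). Ccl3 rose by 1.83 at 9 weeks and 3.11 at 11 weeks (difference -1.28 ± 0.22, adjusted p = 0.000252). Spi1, Rragd and Hmox1 had differences of -0.80, -0.91 and -0.77 (adjusted p = 0.00297, 0.00576 and 0.00611). Atp10d, a lipid flippase, stood 0.22 higher in Npc1-/- livers at 9 weeks, which did not pass the test (adjusted p = 0.25), and 1.37 higher at 11 weeks (difference -1.14 ± 0.21, adjusted p = 0.000444). Sult1e1, the oestrogen sulfotransferase, read 4.74, 4.54, 5.48 and 5.45 in Npc1-/- livers, against 2.96, 3.16, 3.11 and 3.15 in Npc1+/+ livers, all under the median of all values, with the groups apart. It rose by 1.96 at 9 weeks and by 5.09 at 11 weeks (difference -3.13 ± 0.79, adjusted p = 0.0176). The differences of Sult1e1 and Hmox1 did not pass the test when only the 4 groups compared were fitted (adjusted p = 0.0839 for Sult1e1 and 0.0662 for Hmox1).

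Against the mean of the effects at 7 and 11 weeks, 144 genes (1.14%) differed at 9 weeks, 111 higher (0.878%) and 33 lower. The count was 23 without Npc1+/+ mouse 3, 26 without Npc1-/- mouse 2, 35 without Npc1-/- mouse 1, 42 without Npc1+/+ mouse 1, 77 without Npc1+/+ mouse 4, 95 without Npc1-/- mouse 3 and 405 without Npc1+/+ mouse 2. Of the genes named, Chek1, Ugt3a1 and Adh4 kept the call in all 8 fits without 1 mouse of 9 weeks. Mice of 7 and 11 weeks were not left out. Adh4, an alcohol dehydrogenase that also oxidises retinol, fell by 0.66 at 9 weeks, with changes of -1.43 at 7 weeks and -2.04 at 11 weeks, so the fall was smaller than at both neighbouring ages (difference from their mean 1.07 ± 0.20, adjusted p = 0.00373).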

How the data were processed

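Liver RNA of single mice was labelled and hybridised to Affymetrix mouse gene arrays, 1 array per mouse. The authors deposited log2 expression values per probe set; the submitters' processing notes name RMA and the program Partek 6.5 without an order of steps, and the genome build is not given in the sources used here. The table holds 35556 probe sets: 21789 are paired with 1 gene symbol in GEO's platform annotation, 1621 with several and 12146 are not listed. Probe sets with several symbols were left out, and each of 19938 genes was read from its brightest probe set. A gene was tested if 4 or more arrays put it over 5.54, the median of the whole table, which left 12638. The deposited log2 values were fitted without further normalization with limma 3.58.1 in R 4.3.3, 1 mean per group over the 48 arrays of the age series (12 groups of 4), followed by eBayes and Benjamini-Hochberg adjustment with a threshold of 0.05. Differences between ages are contrasts of the genotype effects in the same fit. Arrays carry no counts, so the number of arrays limits the precision. Normal data were simulated with 1 spread per gene, taken from these arrays and the same in all groups. The fit recovered 98% of 100 genes changed by a log2 of 1 and 73% of 100 changed by 0.5, with 9 false calls among 12345 genes. These rates do not cover genes whose spread differs between groups, such as Car3.

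Each mouse is a separate sample. Replicate numbers 1 to 4 are shared by the genotypes, but nothing in the labels ties mice of the same number, whose deviations correlated at -0.09 to 0.23, so the fit has no block. The labels name no batch for these arrays, so none was tested. The members and the gene lists were chosen with earlier results of these data known. Genes are named where they were among the largest changes over all genes or within a list, or were fixed by name for a list or comparison; 409 genes were open to naming, and exceptions are marked where they occur. The 58 lists hold 1122 entries for 977 genes, of which 898 were tested. Alternatives were a stricter and no filter, quantile normalization, median centring, the mean of probe sets, array weights, a prior with a trend and robust to outlying genes, a test without moderation, other sets of arrays, a replicate block, other thresholds and leaving out each mouse. Arrays of treated mice were used in 1 alternative only and are otherwise not analysed here.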

Additional observations from a re-analysis of the deposited data

Results flagged for a closer look

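In 25 of the 440 groups of 4 mice checked (2 genotypes, 220 genes), 1 mouse stood apart from the other 3 by Dixon's criterion for the gap to its nearest neighbour. That is 5.7% of groups, and chance alone gives about 5%. Among Npc1-/- mice, mouse 1 was low for Cd5l (7.09) and high for Lamp2 (11.52), Slco1a1 (4.74) and Socs2 (7.36), mouse 2 was low for Aldoa (10.17) and Tlr1 (5.63), and mouse 3 was low for Cd74 (8.14) and high for Il1b (5.28). Among Npc1+/+ mice, mouse 1 was low for C9 (9.23), Cyp2c54 (10.33), Rrm1 (6.52), Ugt2b1 (10.82) and Vsig4 (8.18) and high for Hk3 (5.97). Npc1+/+ mouse 2 was high for Anxa5 (9.55), Cd53 (6.95), Ctsc (9.95), Galc (5.95) and Sqle (8.67). Npc1+/+ mouse 3 was low for Cideb (10.92) and Slc22a7 (8.51), and Npc1+/+ mouse 4 was low for Cps1 (12.77), F2 (11.97), Gstt3 (9.27) and Mmp2 (6.54). All of these are log2 levels.

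The genotype effect (Npc1-/- minus Npc1+/+, log2) differed between ages by limma's interaction test in 22 of the comparisons named with a value. It was higher at 9 weeks than at 7 weeks for Gpr137b-ps (1.17) and Pcgf1 (1.19). It was higher at 9 weeks than at 11 weeks for the replication genes Mcm6 (2.02), Chek1 (1.56) and Mcm5 (1.20) and for the hepatocyte genes Ces3a (3.88), Car3 (3.18), Ugt3a1 (2.37), Paqr9 (2.16), C9 (2.03) and Ghr (1.10). It was lower at 9 weeks than at 11 weeks for Sult1e1 (-3.13), Ctsk (-1.32), Ccl3 (-1.28), Atp10d (-1.14), Rragd (-0.91), Spi1 (-0.80) and Hmox1 (-0.77). Against the mean of 7 and 11 weeks it was higher for Mcm6 (1.65), Chek1 (1.39), Ugt3a1 (1.18) and Adh4 (1.07).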

How the results depend on the processing

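Between the genotypes at 9 weeks the count of called genes was 4190, and 3533 to 4136 in the 8 fits without 1 mouse, 3882 to 4652 under the other alternatives run at the same threshold, 2858 at an adjusted p under 0.01 and 480 when a 2-fold change was also required. Of 220 genes named, 193 were called. Leaving out 1 mouse lost 6 of these calls (Cd5l, Col1a1, Col3a1, Fcmr, Pou2af1 and Vsig4) and the other alternatives at the same threshold lost 1 (Saa3), and no called value changed sign. The fall of Npc1 lay between -1.80 and -1.65 throughout.

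The comparisons between ages depended more on the setting. Only mice of 9 weeks were left out, so mice of 7 and 11 weeks were in every such fit. For 9 minus 7 weeks the count of 110 became 6 at an adjusted p under 0.01, 12 with at least 2-fold, 198 with quantile normalization, 230 with array weights, 250 with all 78 arrays and 32 with only the groups compared, and 16 to 293 without 1 mouse. For 9 minus 11 weeks the count of 392 became 133 at 0.01, 76 with at least 2-fold, 898 with array weights, 622 with all 78 arrays and 228 with only the groups compared, and 244 to 605 without 1 mouse. For 9 weeks minus the mean of 7 and 11 weeks the count of 144 became 12 at 0.01, 9 with at least 2-fold, 82 without a filter, 578 with array weights, 322 with all 78 arrays and 51 with only the groups compared, and 23 to 405 without 1 mouse. The cause was not tested; the fit on the groups compared has fewer arrays by construction.

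With the replicate number as a block the counts were 4108 at 9 weeks, 56 for 9 minus 7 weeks, 391 for 9 minus 11 weeks and 95 for 9 weeks minus the mean of 7 and 11 weeks. No label ties mice of 1 number, and 2 of the 4 Npc1-/- mice correlated best with the Npc1+/+ mouse of their own number.

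Among the lists, 13 of the 19 genes of the TNF, interleukin-1 and Toll receptor list rose, against 8 under the stricter filter on low values, which tests fewer genes. Of 17 clock genes 1 fell, against 8 with only the groups compared. Leaving out 1 mouse moved a list's count by 3 or more genes and over 1.5 times in 5 lists: without Npc1+/+ mouse 2, carboxylesterases (5 lower, not 9) and heat shock genes (4 higher, not 1); without Npc1+/+ mouse 4, fatty acid oxidation (2 lower, not 5) and gluconeogenesis (1 lower, not 4); and without Npc1+/+ mouse 3, small nucleolar RNAs (6 lower, not 15). Without detection calls, changes among dim signals are understated by an unknown amount.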

Other observations

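Of 15 iron genes tested 4 rose and 3 fell (median -0.03), where over all genes 17.6% rose and 15.5% fell. The ferritin chains Fth1 and Ftl1, which store iron, rose 1.56-fold and 1.42-fold. Fth1 read 13.38, 13.17, 13.25 and 13.23 in Npc1-/- livers, against 12.65, 12.67, 12.55 and 12.60 in Npc1+/+ livers, with no overlap (adjusted p = 1.15e-11). Tfr2, the sensor of iron-loaded transferrin on hepatocytes, fell 1.50-fold. Alas2, the haem synthesis enzyme of red cell precursors, fell 2.37-fold, and Car1, the carbonic anhydrase of red cells, fell 2.19-fold. Over 13 erythroid genes the mean was 5.51 to 5.72 in Npc1-/- livers and 5.74 to 5.95 in Npc1+/+ livers, close to the median of all values.

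Genes of the lobular zones changed in both directions, where 17.6% of all genes were higher and 15.5% lower. Of 12 pericentral genes 3 rose and 2 fell (median 0.02), and of 8 periportal genes 2 rose and 1 fell (median 0.02), and both medians turned negative after median centring. Glul, the glutamine synthetase of cells around the central vein, rose 1.36-fold and the ammonium transporter Rhbg of the same zone 1.48-fold, Cyp27a1 of the pericentral list fell as given above, and Cdh1, the periportal cadherin, rose 1.87-fold. Hsd17b13, a lipid droplet protein, rose 1.67-fold. Of 17 clock genes tested 1 rose and 1 fell (median -0.32), and with the 8 arrays fitted alone 1 rose and 8 fell. The 1 that rose was Bhlhe41, a repressor in the circadian clock, at 4.57-fold. It had a mean of 6.38 ± 0.23 in Npc1-/- livers and 4.19 ± 0.35 in Npc1+/+ livers (SD, n = 4 each), where all 4 mice were under the median of all values.

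Some hepatocyte genes varied widely among wild-type mice. Serpina4-ps1 read 4.82, 4.51, 4.29 and 4.53 in Npc1-/- livers, against 6.49, 7.86, 8.91 and 10.95 in Npc1+/+ livers. Cyp3a16 read 3.51, 3.26, 4.31 and 3.49 in Npc1-/- livers, against 5.94, 9.61, 8.11 and 5.03 in Npc1+/+ livers. Both were low in every Npc1-/- mouse, and the Npc1+/+ mice that were high differed between these 2 genes.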
